A study of Mus musculus with 56 samples.

Results

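Sox4-high and Sox4-low lines were the ends of a ranking of 24 control clones of mouse granulocyte-monocyte progenitors (GMPs), chosen by how many ATAC-seq counts fell at the Sox4 gene. ATAC-seq uses the Tn5 transposase to cut and tag open chromatin, so that the number of counts in a region reads its accessibility. The 24 SCF control libraries were ordered by their CPM (counts scaled to the library total over all peaks) in the peaks centred within 10 kb of the Sox4 transcription start site (TSS, chr13:28953713, mm10). The 8 highest lines were called Sox4-high and the 8 lowest Sox4-low, so that 16 of the 24 control lines, and of the 56 libraries of the series, entered the comparison. All results elsewhere in the genome leave out chr13 from 28.4 to 29.5 Mb, where Sox4 lies.

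Each of the 28 clones grew from a single GMP of a Tet2 fl/fl mouse that had been immortalised with a Hoxb8-ER retrovirus, which holds cells as undifferentiated progenitors for as long as estradiol (here 0.5 uM beta-estradiol) is present. Each clone was then split into a Tet2 KO line, made with a non-integrating lentiviral vector carrying Cre, and a control line, made with the same kind of vector carrying GFP, both at a multiplicity of infection of 200. A clone has no biological replicate of its own in these data: 1 library of 1000 cells represents each line. The 24 clones used here grew in SCF (100 ng/ml), and the other 4 grew in GM-CSF (10 ng/ml). The groups are therefore, in the order used below, Sox4-high control lines (clones 12, 18, 8, 13, 26, 10, 17 and 24) and Sox4-low control lines (clones 1, 14, 25, 29, 4, 7, 3 and 27), with the Tet2 KO sister lines of the same clones beside them. The control lines are floxed and vector-treated, all carry Hoxb8-ER, so they are models of GMPs held in culture rather than GMPs of the marrow. Whether the floxed Tet2 exon was lost was not checked here.

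Sox4 belongs with Sox11 and Sox12 to the SoxC family of transcription factors, which bind DNA through an HMG box and bend it. In blood, Sox4 is needed for B-cell development and is on in stem and progenitor cells, and it is known as a gene that cooperates in myeloid leukaemia when it is raised. The factor C/EBPα, which drives granulocytic differentiation, is known to hold Sox4 down. How far clones derived from single GMPs differ at such a locus, and whether a difference is kept after the clone is split into a KO and a control line, is what the pairs of lines allow to be measured.

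The label of a closed locus did not hold. All 8 Sox4-low lines had counts in the peak over the Sox4 promoter, and the mean of the Sox4 locus in them lay at the 86.7th percentile of 18691 loci, against the 95.7th percentile in the Sox4-high lines. The 4 GM-CSF control lines, at 17.4 to 45.3 CPM, all lay below the lowest Sox4-low line, on 2 to 19 counts each, and the interval of clone 20 (4 counts) reached 116 CPM. For 3 of the 4 (clones 20, 21 and 22) the sample title says SCF; the treatment entry, GM-CSF, was followed here. The lines are therefore named here by their rank, as high and low.

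The sequences of the Sox4 elements that carried most of the counts are given first, on the Sox4 strand (minus) of mm10, with matches to a searched motif in capitals. The promoter peak covers chr13:28953608-28953908, and its part upstream of the annotated exon is chr13:28953714-28953908. Its capitals mark 2 boxes for NFY, a factor common at promoters (GCCAAT on either strand), which 9.58% of all peaks hold. The upstream element with the largest ratio between the groups is chr13:28959552-28959851, and its capitals mark an E-box (CAGCTG, which reads the same on both strands and is held by 22.3% of peaks). The third sequence is the upstream part of the Lrig1 promoter peak, chr6:94700189-94700488 (minus strand), the peak that separated the groups elsewhere in the genome, and its capitals again mark GCCAAT.
Sox4 promoter: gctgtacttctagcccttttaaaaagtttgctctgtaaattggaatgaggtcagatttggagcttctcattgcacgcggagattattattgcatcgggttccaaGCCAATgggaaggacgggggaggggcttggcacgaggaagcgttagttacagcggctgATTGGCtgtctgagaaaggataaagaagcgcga
Sox4 upstream element: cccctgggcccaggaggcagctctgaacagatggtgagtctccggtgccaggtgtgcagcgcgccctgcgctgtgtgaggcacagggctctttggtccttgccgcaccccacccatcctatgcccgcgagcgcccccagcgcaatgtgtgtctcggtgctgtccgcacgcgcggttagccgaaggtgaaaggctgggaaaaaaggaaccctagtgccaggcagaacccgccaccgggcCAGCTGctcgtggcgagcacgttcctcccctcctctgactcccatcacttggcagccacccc
Lrig1 promoter: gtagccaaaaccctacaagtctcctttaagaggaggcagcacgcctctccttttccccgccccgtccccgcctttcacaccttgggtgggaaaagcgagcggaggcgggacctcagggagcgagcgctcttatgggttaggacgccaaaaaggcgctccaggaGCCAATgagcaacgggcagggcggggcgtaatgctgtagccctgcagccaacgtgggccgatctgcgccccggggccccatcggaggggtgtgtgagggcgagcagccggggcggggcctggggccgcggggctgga
None of the 3 holds a match to the SOX letters searched (AACAAT or AACAAAG). A match describes letters in the window and is not a bound site.

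The Sox4-high lines had 118.6 to 166 CPM at Sox4 (median 133), against 69.5 to 94.2 CPM (median 88.0) in the Sox4-low lines. The 8 lines between them had 98.3 to 117.0 CPM. These values chose the groups, so they are a description with no test. The mean was 137 ± 15.5 CPM in Sox4-high lines and 85.2 ± 8.54 CPM in Sox4-low lines (SD, n = 8 each), a ratio of 1.61. The limits cut through a continuous series: clone 24 was the last Sox4-high line at 118.6 CPM and clone 23 fell just outside at 117.0, and at the other end clone 1 was just inside at 94.2 CPM and clone 2 just outside at 98.3. The values rest on 40 to 156 counts per Sox4-high line and 8 to 56 counts per Sox4-low line. With exact 95% Poisson intervals, which cover counting error only, 7 of the 8 Sox4-high lines lay above every Sox4-low value, but the interval of each of the 8 reached into that of at least 1 Sox4-low line. The ranking thus separates the ends of the series and not each line from each other line.

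**Figure D1:**
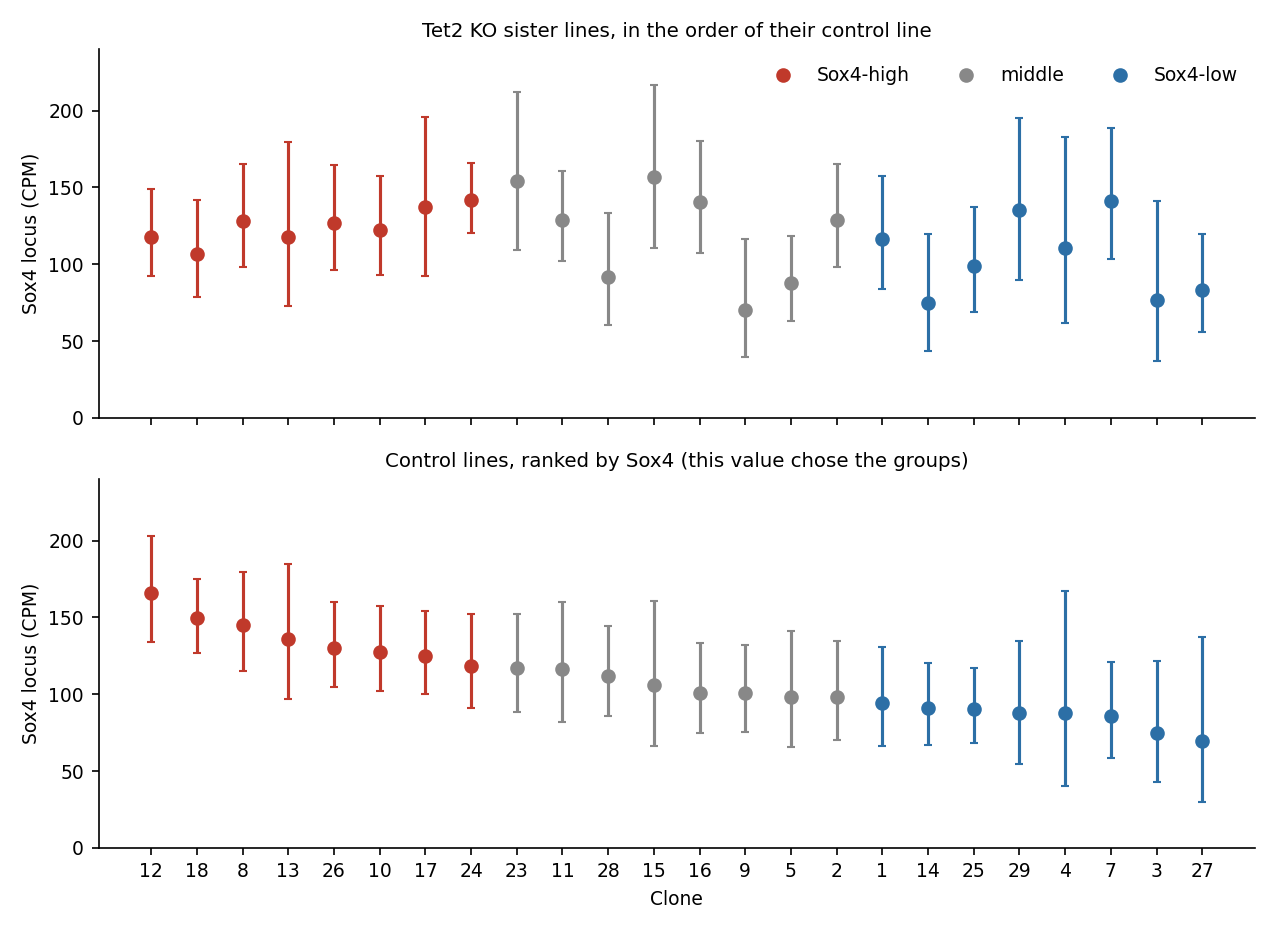
Sox4 locus accessibility (CPM within 10 kb of the TSS, exact 95% Poisson intervals) for 24 clones ordered by their control line, with KO sister lines in the upper panel and control lines in the lower. The control lines fall from 166 to 69.5 CPM by construction, and in the KO panel Sox4-high clones span 107 to 142 CPM while Sox4-low clones span 74.7 to 141 CPM. The middle clones span 70.4 to 157 CPM in the KO panel.

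The locus held 10 peaks, and 9 of the 10 were higher in Sox4-high than in Sox4-low control lines. The sum over these peaks chose the groups, so their differences in control lines are a description with no test. The promoter peak, centred 45 bases upstream of the TSS, carried 43.4% of the counts and had 59.0 ± 9.02 CPM in Sox4-high lines and 35.5 ± 9.27 CPM in Sox4-low lines. The element 5988 bases upstream had 19.3 ± 2.60 CPM in Sox4-high lines and 8.56 ± 4.81 CPM in Sox4-low lines, a ratio of 2.25. A neighbouring element 4260 bases upstream had 18.2 ± 6.01 and 12.0 ± 7.54 CPM, and the peak 882 bases downstream, still at the promoter, had 14.7 ± 5.90 and 8.46 ± 5.62 CPM in Sox4-high and Sox4-low lines. The promoter peak and the element at 5988 bases held 45.1% and 20.6% of the summed difference. The exception was a sparse peak over the exon, 3963 bases downstream, with 1.97 ± 1.26 CPM in Sox4-high lines and 4.19 ± 3.39 CPM in Sox4-low lines.

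The KO sister lines took no part in the ranking, so the same locus can be tested in them. The sisters of Sox4-high clones had 107 to 142 CPM at Sox4 (median 125), against 74.7 to 141 CPM (median 105) in the sisters of Sox4-low clones. The mean was 124.9 ± 11.2 CPM against 104.7 ± 25.7 CPM (SD, n = 8 each). The difference of 0.27 on the log2 scale did not pass an exact two-sided permutation test (p = 0.0549), nor did that of 20.2 CPM (p = 0.0634). The groups overlap: among Sox4-low clones, the KO lines of clones 7 and 29 had 141 and 135 CPM, as much as the highest sisters of Sox4-high clones, while those of clones 14, 3 and 27 had 74.7, 76.9 and 83.3 CPM. The spread was thus wider among the sisters of Sox4-low clones. Their values rest on 10 to 46 Sox4 counts per line, against 21 to 153 in the sisters of Sox4-high clones. The part of counting error in this spread was not tested. Leaving out the KO line of clone 7 gave 0.34 (exact p = 0.0146), that of clone 29 gave 0.33 (exact p = 0.0225), and that of clone 14 gave 0.21 (exact p = 0.106). With TMM scaling in place of library totals the difference was 0.19 (exact p = 0.183). The KO sisters of the 8 middle clones had 70.4 to 157 CPM (median 129, mean 120 ± 32.6 CPM). Their median lay above that of the sisters of Sox4-high clones, so the KO medians did not follow the order of the ranking.

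Over all 24 clones, Sox4 CPM in the KO line and in the control line had a Pearson r of 0.32 (permutation p = 0.126, adjusted over 4 relations 0.224) and a Spearman rho of 0.28 (permutation p = 0.179). Without the 2 clones farthest from the median, r was 0.44 (permutation p = 0.0405, adjusted 0.162). Clones 1 to 18 and clones 23 to 29 are separate runs of numbers in the labels, and within them r was 0.26 (n = 17, permutation p = 0.321) and 0.58 (n = 7, exact permutation p = 0.168).

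Of the 10 Sox4 peaks, 7 were higher in the KO sisters of Sox4-high clones. The promoter peak had 63.9 ± 9.14 CPM in sisters of Sox4-high clones and 51.7 ± 16.4 CPM in sisters of Sox4-low clones (exact permutation p = 0.0890, adjusted over the 10 peaks 0.445). The element at 5988 bases, which had the largest ratio in control lines, did not keep that direction, with 12.8 ± 5.81 CPM against 15.3 ± 6.94 CPM (exact permutation p = 0.443). It was picked by its ratio in the lines that were ranked, and its change between control and KO lines was not tested. The exon peak at 3963 bases was the only 1 of the 10 to pass, at 4.23 ± 3.43 against 0.359 ± 1.02 CPM (exact permutation p = 0.00389, adjusted 0.0389). It rested on 13 counts against 1 and ran opposite to the control lines.

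**Figure D2:**
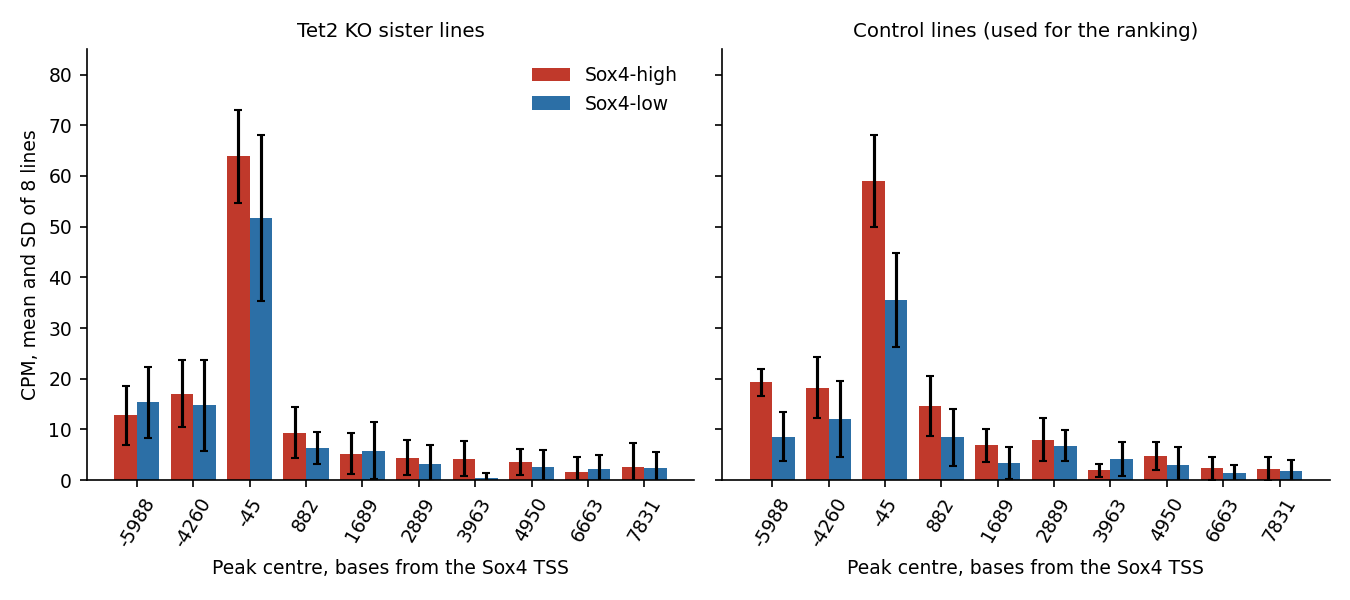
Mean CPM (bars, with SD over 8 lines) of each of the 10 Sox4 peaks, by the position of the peak centre from the TSS, in KO sister lines on the left and control lines on the right. The promoter peak is the tallest in every group, at 63.9 and 51.7 CPM in KO sisters of Sox4-high and Sox4-low clones. These peaks chose the groups in control lines, where the peak 5988 bases upstream has the largest ratio. That peak is not higher in KO sisters of Sox4-high clones.

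Depth and promoter share were the library measures that differed most between the ends of the ranking, with the share of chromosome 11. Sox4-high control lines had 294745 to 1042973 counts in peaks (mean 632936), against 102302 to 619952 (mean 323164) in Sox4-low lines (exact permutation p = 0.00824, adjusted over 23 library measures 0.0631). The share of counts within 1 kb of a TSS was 50.0 ± 1.54% in Sox4-high lines and 44.2 ± 5.22% in Sox4-low lines (exact permutation p = 0.00668, adjusted 0.0631), and 3 Sox4-low lines, clones 14, 25 and 27, were under 45%. The 8 middle lines had 44.95 ± 1.75%, with a median of 44.98% against 45.7% in the Sox4-low lines, so the share did not follow the ranking below the Sox4-high lines. Chromosome 11 took 8.53% of counts in Sox4-high lines and 8.27% in Sox4-low lines (exact permutation p = 0.00559, adjusted 0.0631). Chromosome 13 without the Sox4 window took 3.95% and 3.90% (exact permutation p = 0.0838). None of the 23 measures passed the adjusted limit of 0.05. In the KO sisters the counts in peaks averaged 491831 for Sox4-high and 261074 for Sox4-low clones (exact permutation p = 0.0238, adjusted 0.490), and the promoter share was 50.6 ± 2.09% for Sox4-high and 47.1 ± 5.77% for Sox4-low clones (exact permutation p = 0.144). The counts of called loci below are also given with promoter share in the model and without the 3 lines under 45%. With the log2 of the library total in the model 0 loci were higher and 13 lower.

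**Figure D3:**
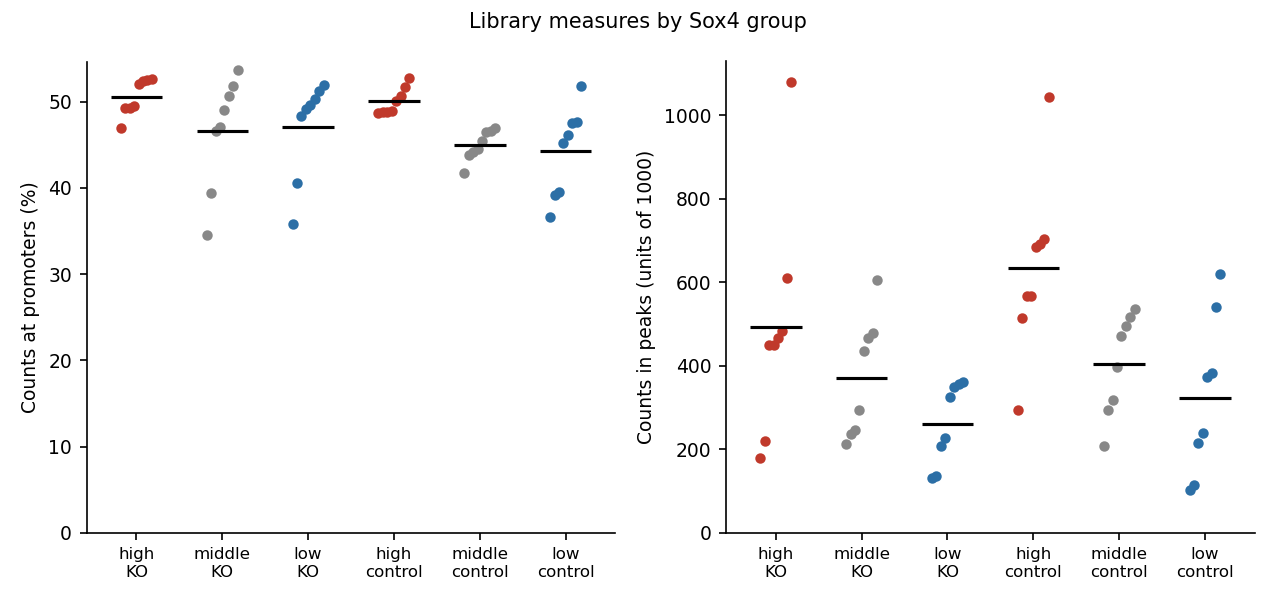
Percent of counts within 1 kb of a TSS (left) and counts in peaks in units of 1000 (right) for each library, with KO sister lines before control lines and Sox4-high, middle and Sox4-low in that order; bars are means of 8 lines. Promoter shares average 50.0% in Sox4-high and 44.2% in Sox4-low control lines, where 3 Sox4-low lines sit under 45%.

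The marker loci put the lines of both groups with progenitors. The 9 progenitor marker loci, among them Mpo and Elane (primary granule proteins), Kit (the SCF receptor) and Cebpa, had a median percentile of 82.4 among all loci, against 37.8 for 7 loci of mature cells and 35.6 for 6 loci of other lineages. Their summed CPM ranged from 779 to 1044 in Sox4-high and from 626 to 848 in Sox4-low lines, and that of the mature markers, S100a8, Ltf and Camp among them, from 77.8 to 141 and from 105 to 169. Gata1 and Cd3e, defining genes of erythroid and T cells, were at 2.65 and 6.78 CPM in Sox4-high lines and 4.08 and 6.98 CPM in Sox4-low lines, whereas the windows of Klf1 and Cd79a were among the more accessible loci at 155.7 and 118.9 CPM in Sox4-high lines and 129.7 and 107.1 CPM in Sox4-low lines. A 10 kb window can hold the promoters of neighbouring genes. The part of these markers in the results below was not tested.

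Across the genome, with TMM scaling, 0 loci rose and 10 fell in Sox4-high lines, and the balance depended on the scaling. Counts were summed per gene over the peaks centred within 10 kb of its TSS and compared with edgeR's quasi-likelihood test. Of 11544 loci tested, 0 (0%) were higher and 10 (0.0866%) were lower in Sox4-high lines at a Benjamini-Hochberg adjusted p under 0.05. At an unadjusted p under 0.05, 401 (3.47%) were higher and 585 (5.07%) lower, and DESeq2 called 0 higher and 5 lower. With library totals in place of TMM, the scale on which the lines were ranked, edgeR called 48 higher and 6 lower, with 2093 higher and 125 lower at an unadjusted p under 0.05. The smallest adjusted p of a rise with TMM was 0.138, at Nrf1. In all, 85.8% of loci lay within 0.3 log2 of no difference, with a median of -0.0047 and a median standard error of 0.163. The fits are scaled by TMM, which moves the median locus by 0.165 log2 against raw CPM, so a locus with like CPM in both groups has a negative log2 fold change; the fold changes below are relative to that median.

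The 10 lower loci had little accessibility. Their mean of 20.6 to 41.4 CPM lay below the median tested locus (54.4 CPM) in every case, and their log2 fold changes ran from -1.31 to -0.92. Among them, Slc12a3 encodes the thiazide-sensitive salt transporter of the kidney, Lhb the beta chain of luteinising hormone, Mfap2 a microfibril protein of the extracellular matrix, Epha2 an ephrin receptor kinase, Plxnb2 a semaphorin receptor, and Lrig1 a membrane protein that restrains growth factor receptors. The others were Mroh2a, Smok2a (a testis kinase of the Smok family), Bicdl2 and Shisal1. Mfap2 and Lhb passed beyond the 8 of smallest p and are named after their values were seen.

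Mroh2a (chr1:88226986-88262289) had the smallest p, with 17.6 to 33.5 CPM (median 24.8) in Sox4-high lines and 17.4 to 66.1 CPM (median 38.4) in Sox4-low lines. Its log2 fold change was -1.11 ± 0.21 (SE; edgeR adjusted p = 0.00381). The groups overlap at the low end, and the difference came from Sox4-low lines that reached above 33.5 CPM. Bicdl2 had 6.79 to 26.0 CPM (median 14.1) in Sox4-high lines and 20.9 to 43.4 CPM (median 36.6) in Sox4-low lines, a log2 fold change of -1.31 ± 0.25 (edgeR adjusted p = 0.00381). Shisal1 had 5.30 to 19.4 CPM (median 13.5) in Sox4-high lines and 19.6 to 35.2 CPM (median 27.1) in Sox4-low lines, a log2 fold change of -1.24 ± 0.26 (edgeR adjusted p = 0.0158). The lowest Sox4-low value there was that of clone 4, whose library held 102302 counts in peaks. At such CPM a library of that depth has only a few counts at a locus, so the ranges of these loci include counting error. Smok2a had 10.6 to 45.9 CPM against 25.1 to 48.9 CPM (log2 fold change -1.19), where clone 8, at 45.9 CPM, stood apart from the other Sox4-high lines. The middle lines did not fall evenly between the groups. Their mean was 44.1 CPM at Mroh2a and 43.1 CPM at Smok2a, above the Sox4-low means of 41.8 and 42.1 CPM. At Shisal1 and Epha2 it was 25.6 and 26.7 CPM, near the Sox4-low means of 27.7 and 29.9 CPM. At Slc12a3 and Lrig1 it was 20.9 and 34.7 CPM, near the Sox4-high means of 17.8 and 30.3 CPM. At Bicdl2, Plxnb2, Mfap2 and Lhb it lay between the group means.

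Lrig1 (chr6:94604529-94700158) had 21.2 to 44.1 CPM (median 28.3) in Sox4-high lines and 28.0 to 97.7 CPM (median 46.8) in Sox4-low lines, a log2 fold change of -0.93 ± 0.20 (edgeR adjusted p = 0.0230). When peaks were tested singly at the study's limit of 0.01, 0 of 10135 (0%) were higher and 1 (0.00987%) was lower, the Lrig1 promoter peak printed above. It had 26.8 CPM in Sox4-high lines and 49.0 CPM in Sox4-low lines, a log2 fold change of -1.11 ± 0.21 (edgeR adjusted p = 0.00488). At an unadjusted p under 0.05, 313 peaks were higher and 311 lower, and DESeq2 called 0 peaks, as did edgeR with promoter share in the model.

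The calls depended on the choice of lines, and few of the 10 loci could be read in the KO sisters. With the promoter share of each library in the model all 10 stayed negative with larger standard errors and none passed, while 19 other loci were called lower. Bicdl2 was then at -1.19 ± 0.35, Slc12a3 at -1.07 ± 0.34, Smok2a at -0.998 ± 0.32 and Lrig1 at -0.82 ± 0.29, near their values without it, whereas Mroh2a was at -0.50 ± 0.30, Mfap2 at -0.36 ± 0.30 and Plxnb2 at -0.34 ± 0.30. Without clones 14, 25 and 27, the lines under 45% promoter share, 0 loci were called in either direction (430 higher and 528 lower at an unadjusted edgeR p under 0.05). Clones 25 and 14 had the most counts in peaks of all Sox4-low lines (619952 and 539559), so this fit had fewer Sox4-low lines and less depth. The parts of promoter share, depth and number of lines in the loss of calls were not tested apart. Leaving out clone 14 or clone 25 alone left 1 lower locus each, and leaving out clone 12 or clone 8 left 3 and 6. Only 4 of the 10 loci had enough counts to be tested in the KO lines. Of these, Mroh2a was at -0.57 ± 0.24 (edgeR unadjusted p = 0.0179, adjusted 0.688), with 14.8 to 50.2 CPM in sisters of Sox4-high clones against 22.5 to 69.2 CPM in sisters of Sox4-low clones. Lrig1 was at -0.28 ± 0.20, Plxnb2 at 0.06 ± 0.26 and Mfap2 at 0.08 ± 0.23, and none of these passed.

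**Figure D4:**
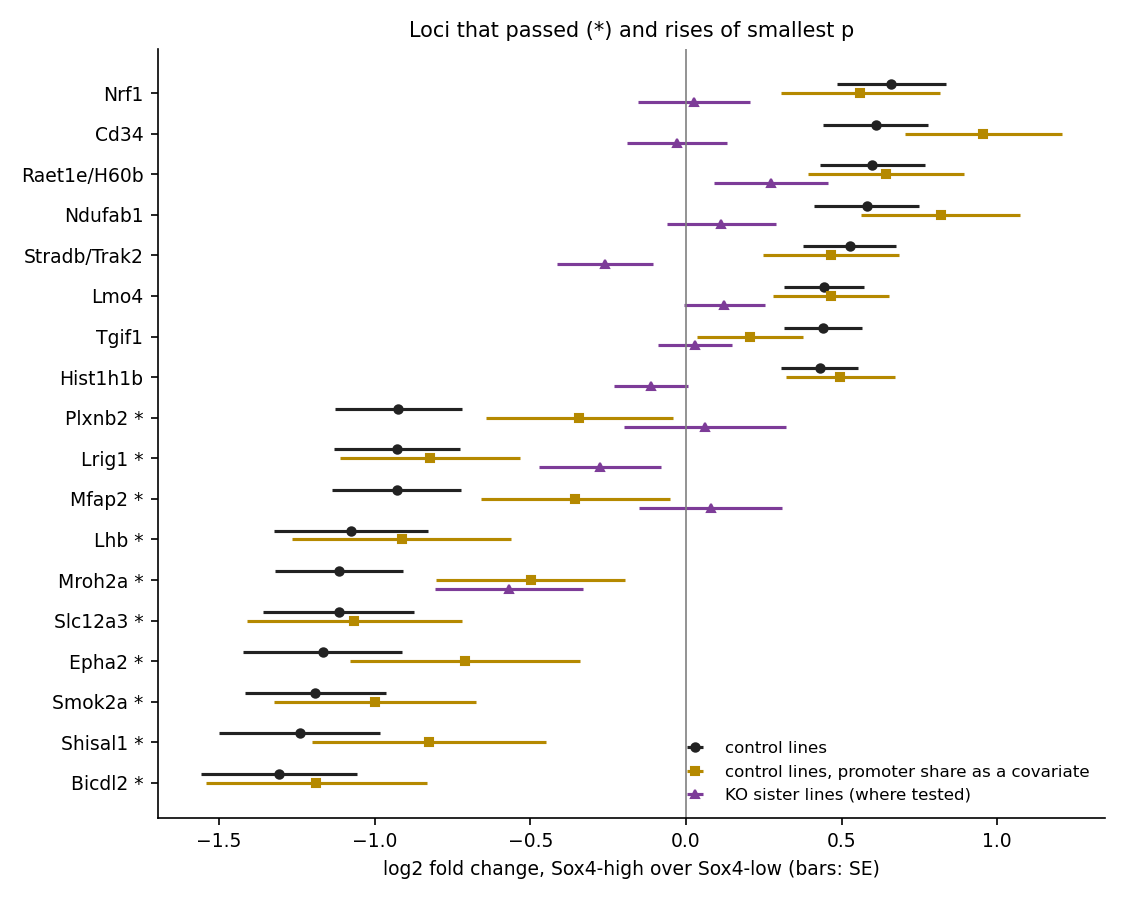
Log2 fold change of Sox4-high over Sox4-low (points, with SE) in control lines, in control lines with promoter share as a covariate, and in KO sister lines where tested, for the 8 rises of smallest p and the 10 loci that passed (starred). In control lines the starred loci lie between -1.31 and -0.92, and in KO lines Mroh2a lies at -0.57 while Plxnb2 and Mfap2 lie near 0.

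None of the rises passed with TMM, and the 8 of smallest p are given as values. All 8 passed with library totals in place of TMM, where Nrf1 was at 0.83, Cd34 at 0.79, Ndufab1 at 0.75 and Stradb at 0.70 (edgeR adjusted p = 0.0217 each), and all 8 passed with no filter on low counts. Cd34, the surface marker of stem cells and progenitors, had 56.5 to 101 CPM (median 81.9) in Sox4-high lines and 14.0 to 71.2 CPM (median 42.1) in Sox4-low lines, a log2 fold change of 0.61 ± 0.17 (edgeR unadjusted p = 5.0e-04, adjusted 0.195). With promoter share in the model it was at 0.96 ± 0.25 (edgeR adjusted p = 0.0819). In the KO sisters Cd34 had 27.4 to 101 CPM (median 75.5) for Sox4-high clones and 38.4 to 118 CPM (median 72.4) for Sox4-low clones, a log2 fold change of -0.03 ± 0.16. The difference between these contrasts had an unadjusted p of 0.00309 and an adjusted p of 0.961 in edgeR's interaction test with the clone as a block. Without clone 25, Cd34 was the locus that passed, at 0.87 (edgeR adjusted p = 0.0470), and over clones 1 to 18 it was at 1.05 (edgeR adjusted p = 0.0314).

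Nrf1, a regulator of mitochondrial genes, had 37.3 to 79.7 CPM in Sox4-high lines and 26.1 to 50.8 CPM in Sox4-low lines (log2 fold change 0.66 ± 0.17). Its log2 fold change in the KO sisters was 0.03 ± 0.18. Ndufab1, an acyl carrier protein of the mitochondrion, was at 0.58 ± 0.17, with 53.0 to 81.0 CPM in Sox4-high lines and 31.4 to 46.7 CPM in Sox4-low lines. Its KO value was 0.11 ± 0.18. Tgif1, a repressor of TGF-beta signalling, was at 0.03 ± 0.12 in KO lines and 0.44 ± 0.13 in control lines. Lmo4, a LIM-domain cofactor, was at 0.12 ± 0.13 in KO and 0.44 ± 0.13 in control lines. Hist1h1b, a linker histone gene on chromosome 13 outside the left-out window, was at -0.11 ± 0.12 in KO and 0.43 ± 0.12 in control lines. Raet1e and H60b (NKG2D ligands that share all their peaks) were at 0.27 ± 0.18 in KO and 0.60 ± 0.17 in control lines, and Trak2 and Stradb, which also share all their peaks, at -0.26 ± 0.15 in KO and 0.53 ± 0.15 in control lines. The adjusted p of these 8 loci lay between 0.138 and 0.205 in the control lines.

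In the KO sister lines 0 of 9547 loci (0%) were called higher and 0 (0%) lower by edgeR, with 295 higher and 302 lower at an unadjusted p under 0.05, and DESeq2 called 0. For single peaks the count was 0 of 6875 in either direction (210 higher and 221 lower at an unadjusted edgeR p under 0.05). Of the 704 loci at an unadjusted p under 0.05 in control lines that were also tested in KO lines, 485 (68.9%) had the same sign there, and of all 9547 loci 5434 (56.9%) had. The interaction test called 0 of 11544 loci (543 at an unadjusted p under 0.05).

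A wider window gave more calls. When the peaks within 50 kb of each TSS were summed, 105 of 16248 loci (0.646%) were higher and 373 (2.3%) lower in Sox4-high lines. Neighbouring genes share peaks at this width. Only identical peak sets were merged, which left 362 for the 373 lower loci. Sets that overlap in part still count apart, so the loci are not independent. The lower loci had a median of 49.2 CPM against 113 CPM over all loci and a median log2 fold change of -0.72, and the higher ones had a median of 194.9 CPM and 0.33. At this width the loci of smallest p, named after their values were seen, were Mroh2a and the neighbouring Ugt1a genes, which encode glucuronidation enzymes of liver and gut. The window of Ugt1a1 had 122 ± 19.5 CPM in Sox4-high lines and 198.1 ± 51.8 CPM in Sox4-low lines (log2 fold change -0.90 ± 0.11; edgeR adjusted p = 8.9e-08), and 148 ± 39.7 CPM against 210.3 ± 87.5 CPM in the KO sisters (log2 fold change -0.54). Myo18b, a myosin of striated muscle, had 33.8 ± 11.6 and 76.7 ± 30.9 CPM in Sox4-high and Sox4-low lines (-1.15 ± 0.19), and Bmp7, a bone morphogenetic protein, had 38.8 ± 9.01 and 76.1 ± 24.0 CPM (-0.99 ± 0.17). Among the higher loci, Cd34 was at 0.55 ± 0.13 with 157.5 ± 23.8 and 95.97 ± 37.4 CPM (edgeR adjusted p = 0.00950), and Spry1, an inhibitor of receptor tyrosine kinase signalling, at 0.43 ± 0.11 with 168.8 ± 25.6 and 122 ± 20.7 CPM. Spry1 was at 0.40 in the KO sisters.

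The loci called at 50 kb were then read in the KO sisters. Of the 292 lower loci with a KO value, 278 (95.2%) were negative in the KO sisters too, with a median of -0.28. Of the 102 higher loci with one, 89 (87.3%) were positive, and over all 15114 loci 9499 (62.8%) had the same sign. No locus was called in the KO lines themselves at this width (0 of 15115 by edgeR, 554 higher and 616 lower at an unadjusted p under 0.05). With promoter share in the model 16 loci were higher and 34 lower, and these were mostly other loci: only 1 of the 373 lower and 6 of the 105 higher loci stayed called, Cd34 among the 6 (0.75, edgeR adjusted p = 0.0421). Of the same sign were 362 of the 373 and 99 of the 105, and Ugt1a1 was then at -0.39 (edgeR adjusted p = 0.245). Without clones 14, 25 and 27 there were 0 in either direction (702 higher and 900 lower at an unadjusted edgeR p under 0.05). That fit again had fewer Sox4-low lines and lacked the deepest of them. The KO sisters' depth and promoter shares, given above, lean the same way, and their part in the shared signs was not tested.

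**Figure D5:**
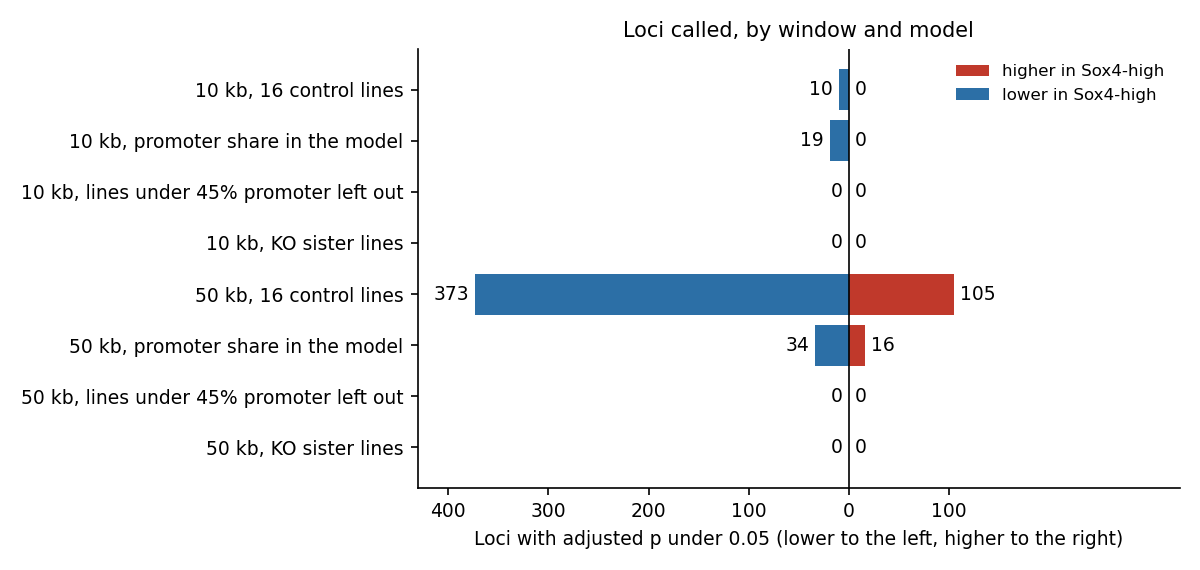
Number of loci called (adjusted p under 0.05) lower (left of 0) or higher (right of 0) in Sox4-high lines, for the 10 kb and 50 kb windows, with promoter share in the model, without the lines under 45% promoter share, and in KO sister lines. At 50 kb the counts are 373 lower and 105 higher in all 16 control lines, 34 and 16 with promoter share in the model (only 1 of the 373 and 6 of the 105 are called in both), and 0 and 0 without those lines. The fits without those lines have fewer Sox4-low lines and lack the deepest of them.

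No gene list that bears on Sox4 or on myeloid identity held a called locus. Of 24 lists, none had a member past the limit, against 0.0866% of all loci called lower. At that share, lists of 2 to 28 tested loci would be expected to hold none. The lack of calls is therefore not a result about these genes in particular. Among other Sox genes, 5 of 13 were tested, with a median log2 fold change of -0.01 against -0.0047 over all loci. Sox12, the other SoxC gene with enough counts, had 57.4 ± 15.4 CPM in Sox4-high lines and 34.5 ± 12.6 CPM in Sox4-low lines, a log2 fold change of 0.47 ± 0.19 (edgeR unadjusted p = 0.0154, adjusted 0.474), and 0.28 in the KO sisters. Sox18 was at 0.20, Sox15 at -0.01, Sox8 at -0.11 and Sox13 at -0.49. Of 13 tested regulators and partners of Sox4, the median was 0.00088. Cebpa, whose product holds Sox4 down, had 140 ± 8.97 CPM in Sox4-high lines and 115 ± 43.8 CPM in Sox4-low lines, a log2 fold change of 0.11 ± 0.12 (edgeR adjusted p = 0.862). Sdcbp, which encodes syntenin, a binding partner of Sox4, was at 0.50 ± 0.17 (edgeR unadjusted p = 0.0034, adjusted 0.298), and Tcf7, the Wnt-responsive factor, at -0.52 ± 0.24 (edgeR adjusted p = 0.544).

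Stem and later neutrophil loci were read by their unadjusted counts and medians, since none passed. Of 24 tested stem loci 17 were positive, with a median of 0.11 log2, where 5659 of all 11544 loci were positive. At an unadjusted p under 0.05, 3 stem loci were higher and 2 lower, against 3.47% and 5.07% of all loci. Kit had 76.2 ± 13.3 CPM in Sox4-high lines and 54.4 ± 15.8 CPM in Sox4-low lines (0.33 ± 0.15; edgeR adjusted p = 0.527), Ly6a, which encodes Sca-1, was at 0.46, and Bcl11a was at -0.48. Of 11 tested later neutrophil loci 3 were positive, with a median of -0.25, and 4 (Csf3r, Padi4, Lrg1 and Cxcr2) were lower at an unadjusted p under 0.05, where 5.07% of all loci were. Csf3r, the G-CSF receptor, had 24.7 ± 7.65 CPM in Sox4-high lines and 36.4 ± 9.36 CPM in Sox4-low lines (-0.79 ± 0.22; edgeR unadjusted p = 0.00037, adjusted 0.178), and Padi4, the histone-citrullinating enzyme of neutrophils, was at -0.65 ± 0.24 and at -0.38 in the KO sisters. With promoter share in the model the median was 0.23 for the stem list and -0.02 for the later neutrophil list. In the KO sisters the medians were 0.08 and -0.03.

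The medians of the other lists ran from -0.29, for the 2 loci that marked desensitised clones, to 0.28, for HoxA. Primary granule loci had a median of -0.16 (8 tested), myeloid transcription factors 0.0048 (26 tested), cell cycle 0.0037 (28 tested), DNA methylation 0.15 (13 tested, Tet3 at 0.30 and Dnmt3a at 0.13) and housekeeping -0.02 (16 tested). Of 14 lymphoid loci, median -0.04, 4 were lower and 1 higher at an unadjusted p under 0.05, where 5.07% and 3.47% of all loci were. HoxB loci had a median of 0.18, with Hoxb4 at 0.63 ± 0.22 (edgeR adjusted p = 0.388). HoxA loci had a median of 0.28, and clone 24, a Sox4-high line, had 148 CPM at Hoxa9 where the other 7 Sox4-high lines had 23.7 to 40.4 CPM. With promoter share in the model the median was -0.08 for HoxA and 0.64 for HoxB, and no HoxA locus could be tested in the KO sisters. Of the loci by which the study marked sensitised clones, Gata2 was at -0.02, Meis1 at 0.00088, Gfi1b at -0.22 and Runx3 at 0.07, and of those that marked desensitised clones F10 was at -0.25 and Timp2 at -0.32. The study chose those loci on these same libraries, but by another measure. It ranked control clones by how far Tet2 KO changed their function, with the GM-CSF clones included. Hlf, a stem-cell factor, had 69.6 ± 14.0 CPM in KO sisters of Sox4-high clones against 45.7 ± 18.9 CPM in those of Sox4-low clones, a log2 fold change of 0.47 ± 0.18 (edgeR unadjusted p = 0.00909, adjusted 0.676), and was at 0.11 in control lines. The nearest tested loci on each side of the left-out window, Mrs2 and E2f3, were at 0.15 ± 0.26 and 0.01 ± 0.12.

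No difference passed the adjusted limit at peaks that hold SOX letters. For each of 20 consensus motifs, the counts in peaks that hold it were set against those expected from peaks of like GC content and accessibility. Peaks with AACAAT, in 10.8% of all peaks, deviated by 0.14 ± 0.42% in Sox4-high lines and 0.21 ± 1.19% in Sox4-low lines, a difference of -0.07 points (exact permutation p = 0.888). Peaks with AACAAAG differed by 0.68 points (exact permutation p = 0.119). None of the 20 passed the adjusted limit over the 16 lines, and the smallest p was that of the E-box CAGCTG, at 0.60 ± 0.98% against -0.85 ± 1.18%, a difference of 1.45 points (exact permutation p = 0.0106, adjusted 0.211). Peaks with GCCAAT, the letters in the Sox4 and Lrig1 promoters above, differed by -2.41 points (exact permutation p = 0.0522, adjusted 0.376). Without the lines under 45% promoter share 3 of the 20 passed: CAGCTG at 1.71 points and GCCAAT at -3.93 points (exact permutation, adjusted p = 0.0311 each), and the ETS letters GAGGAAGT at 2.39 points (exact permutation, adjusted p = 0.0414). Compared as plain shares of counts, without matching for GC content and accessibility, GCCAAT turned to 4.89 points and CAGCTG to -1.46 points, and neither passed. On that scale AACAAT was at -7.14 points and AACAAAG at -6.06 points (exact permutation p = 0.0218 and 0.0227, adjusted 0.0567 each). In the KO sisters 0 of 20 passed, the smallest p being 0.0502.

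The loci whose pattern was most like that of Sox4 were sought in the 24 KO lines, which took no part in the ranking. By Spearman's rho over these 24 lines, among 11544 loci, Dido1 and Gid8 (which share their peaks) came first at 0.78, then Ggnbp2 at 0.70, Rhot1 at 0.69, Hacd3 at 0.67 and Sfxn4 at 0.66. The most opposite were Gm21981 and Prickle4 (which share their peaks) at -0.82, Lefty1 at -0.75, Col7a1 at -0.73, Frs3 and Tomm6 (which share their peaks) at -0.73 and Mex3a at -0.71. Gm21981 and Frs3 both lie on chromosome 17, with 113.7 and 109.9 CPM. Whether their windows share part of their peaks was not tested, so they may not be separate loci. The values are the extremes of a long list, given as a description. In the control lines the rho of the same loci was -0.06 for Dido1, 0.08 for Ggnbp2, 0.37 for Rhot1, -0.01 for Hacd3 and -0.17 for Sfxn4. Of the opposite loci, Col7a1 was at -0.48 and Lefty1 at -0.36 in the control lines, Gm21981 and Frs3 at -0.03 and Mex3a at 0.20.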

How the data were processed

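The deposited table holds, per the labels and from its values, raw integer counts per peak for 56 ATAC-seq libraries over 297361 peaks of 301 bp. The authors aligned reads to mm10; their processing notes name Bowtie2, SAMtools and Picard, and the paper, labels and file header do not say whether fragments or cut ends were counted. The authors' peak set joined peaks of their single-cell data with a public set. The SCF lines used here had 102302 to 1079233 counts in peaks. Locus counts were summed over peaks centred within 10 kb of the TSS of each GENCODE vM21 protein-coding gene and tested with edgeR 4.0.16 (quasi-likelihood, TMM, filterByExpr with a minimum count of 10, adjusted p under 0.05; 0.01 for single peaks), with DESeq2 1.42.0 and limma 3.58.1 as alternatives. The study used DESeq2 for other data. Single values were compared by exact two-sided permutation over the lines (12870 divisions of 16 lines), on log2 CPM with a prior count of 2 for Sox4. Intervals are exact Poisson and cover counting error only. The code was tested on simulated data. Sequences were read from the mm10 RefSeq assembly.

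KO and control lines with the same number are split from the same clone by the labels, which pairs them; the correlation that limma estimated between the lines of a clone was 0.0495. Counts of all pairs of control lines within a group differed beyond sampling noise (chi-square over peaks). The KO libraries of clones 3 and 4 did not (ratio of chi-square to its degrees of freedom 1.00, p = 0.407), but their promoter shares were 35.8% and 51.2%, and they were counted as 2 lines. The p-values measure the spread between these lines. The lines, loci lists and motifs were chosen with earlier results of these data known. Named loci were all that passed in a direction with mean CPM at or over the median (none did), otherwise the 8 of smallest p in each direction, plus a list of progenitor and myeloid loci; Mecom and S100a8 of that list had too few counts to be tested. Loci most like Sox4 were sought over 24 SCF KO lines and not over 28, since the GM-CSF lines form a separate cluster. Lines under 45% promoter share were left out, and the 50 kb window was fitted with promoter share, as alternatives chosen after seeing the data.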

Additional observations from a re-analysis of the deposited data

Results flagged for a closer look

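In 16 of 170 groups of 8 libraries, 1 line lay apart from the other 7 by Dixon's test at the 95% level, where chance gives about 1 in 20, or 8.5. The values are given with no explanation.

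Among named loci in Sox4-high control lines, clone 24 had 147.8 CPM at Hoxa9 (others 23.7 to 40.4), clone 8 had 45.9 CPM at Smok2a (others 10.6 to 24.2) and 75.9 CPM at Cebpb (others 105 to 126), clone 13 had 30.5 CPM at Hlf (others 55.6 to 75.9), and clone 12 had 51.2 CPM at Irf8 (others 28.9 to 37.3).

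Among chromosome shares of counts, clone 13 had 6.99% on chromosome 1 in its KO line (other sisters of Sox4-high clones 5.94 to 6.23%) and 6.99% in its control line (other Sox4-high lines 5.87 to 6.05%). Over all the other 23 SCF clones the share reached 7.19% in KO lines and 7.33% in control lines, so clone 13 was not the highest. Clone 13 also had 4.20% on chromosome 15 in its KO line and 6.22% on chromosome 4 in its control line. In other Sox4-high control lines, clone 24 had 7.01% on chromosome 5 and clone 10 had 5.61% on chromosome 9. In Sox4-low clones, clone 27 had 6.46% on chromosome 1 in its KO line, and 7.69% on chromosome 11 and 3.54% on chromosome 16 in its control line. The KO line of clone 3 had 5.32% on chromosome 9, and that of clone 4 had 3.75% on chromosome 13 outside the left-out window. Without clone 13, 0 loci were higher and 12 lower in control lines. Of the loci named above, Mroh2a, Cd34, Stradb and Trak2 lie on chromosome 1. The part of the chromosome 1 share of clone 13 in their values was not tested.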

How the results depend on the processing

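The count of lower loci depended on the setting: 5 with DESeq2, 6 with library totals in place of TMM, 43 with no filter, 1 with a 1 kb window, 373 with a 50 kb window, 19 with promoter share in the model, 1 for the top 6 against the bottom 6, 1 for the top 12 against the bottom 12, 5 for a trend over 24 lines, 0 when lines were ranked on TMM-scaled Sox4 or on the Sox4 1 kb window, 3 when ranked on the Sox4 residual on promoter share, 1 in clones 1 to 18 and 0 in clones 23 to 29. The count of higher loci was 48 with library totals, 16 with no filter, 105 at 50 kb and 1 in clones 1 to 18, and 0 under the other settings just named. Of the settings chosen after seeing the data, leaving out lines under 45% promoter share gave 0 and 0 at 10 kb and at 50 kb, and promoter share in the 50 kb model gave 16 higher and 34 lower. The former also left fewer Sox4-low lines, without the deepest of them. Leaving out each line in turn gave 1 to 12 lower and 0 to 1 higher. In KO lines library totals gave 1 higher locus. Lower peaks were 0 with DESeq2 or with promoter share in the model. For motifs, 6 passed as unmatched shares of counts and 3 (E-box, NFY and ETS) without lines under 45% promoter share. For Sox4 in KO lines the log2 difference passed with a 1 kb window (0.35) and for the top 12 against the bottom 12 (0.29), and ranged from 0.21 to 0.34 on leaving out each line, passing without the KO line of clone 1, 7, 18 or 29. The fit of control and KO lines together with the clone as a replicate block called 0 higher and 8 lower loci, the interaction with no replicate block called 0, and the pairing changed no other call. Of the called loci, Mroh2a turned to 0.13 under the residual ranking, Plxnb2 to 0.016 at 50 kb with promoter share, Lhb to 0.033 at 50 kb, and Mfap2 to 0.022 at 50 kb, 0.15 under the residual ranking, 0.17 at 50 kb with promoter share and 0.086 at 50 kb without lines under 45%. The cause of these changes was not tested. Of 30 named loci that did not pass, 27 values under an alternative did, those of the 8 rises with library totals or with no filter among them. With 8 to 56 Sox4 counts in Sox4-low lines, single lines cannot be ordered firmly.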

Other observations

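Clone 24 stood apart along the HoxA cluster, the homeobox genes of early progenitors. At Hoxa7 it had 154 CPM in its KO line and 165 CPM in its control line, against medians of 23.1 CPM over the other 23 KO lines and 30.3 CPM over the other 23 control lines. At Hoxa9 it had 150.1 CPM in its KO line and 148 CPM in its control line, against medians of 24.1 and 32.9 CPM. Hoxa3, with 117 CPM in the KO line and 124 CPM in the control line, lay above the highest other line (52.2 and 47.7 CPM). Toward the other end of the cluster, Hoxa11 had 36.1 and 29.2 CPM in the KO and control line, against medians of 17.2 and 23.4 CPM. The value was shared by the lines of the clone, and it was read after the values were seen.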
